A study of Mus musculus with 13 samples.

Results

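The step from E14.5 to E16.5 in the mouse submandibular gland, from branching epithelium to the first lumens, was examined in 5 of the 13 RNA-seq samples of a developmental series, 3 from E14.5 and 2 from E16.5. All were whole glands of C57BL/6 embryos, with noon of the plug day as E0.5, and no sample carried a genetic change or a treatment. A sample was a pool of glands, from 3 animals at E14.5 and from 2 animals at E16.5, and the sex of the embryos was not ascertained. The remaining 8 samples, 2 each from E18.5, P5, 4wk and 12wk, entered the fit only to estimate the spread and are quoted where they place a gene in time. Of 23364 genes in the files, 13751 reached 1 FPKM (fragments per kilobase of gene, scaled to the reads of the sample) in at least 1 of the 5 samples and were compared as log2(FPKM + 1).

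The submandibular gland grows as a branching epithelium inside mesenchyme, driven by growth factor exchange between both tissues and by parasympathetic nerves that follow the epithelium. Solid cords then open into lumens, the cells at the lumen acquire tight junctions and apical transporters, and end bud cells become proacinar cells that fill with secretory granules. Myoepithelial cells, which carry smooth muscle proteins and squeeze the acini, appear around the end buds in the same period. Striated muscle of the mouth floor lies next to the gland and is no part of it.

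Between 19281660 and 26731429 reads fell on genes in the E14.5 samples, and 36258034 and 37309531 in the E16.5 samples. E14.5 replicate 1 stood apart from replicates 2 and 3, with Pearson's r over the tested genes of 0.965 and 0.969, where replicates 2 and 3 correlated at 0.996 and the E16.5 samples at 0.978. In that sample 273 genes were higher than in both other E14.5 samples by at least 1 on the log2 scale and 194 were lower, while replicates 2 and 3 differed by as much in 60 genes. Its summed FPKM of keratin and epithelial identity genes was 707, against 1179 and 1167 in replicates 2 and 3, and its summed FPKM of cartilage and bone genes was 568, against 182 and 186. The epithelial adhesion gene Epcam was present in all 5 samples, at 101, 163 and 159 FPKM at E14.5 and 234 and 307 FPKM at E16.5. In whole tissue, a change in the number of cells of a type and a change in RNA per cell cannot be told apart.

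Genes were called at a log2 difference of at least 1 in size and a Benjamini-Hochberg adjusted p below 0.1 in limma. At E16.5, 615 genes were called higher (4.47% of the tested genes) and 146 lower (1.06%). Of those called higher, 96 differed by at least 2 and 28 by at least 3 on the log2 scale, and of those called lower, 19 and 5. The median difference over all tested genes was -0.01. After median-of-ratios rescaling, 534 genes were called higher (4.02% of 13275 tested) and 110 lower (0.829%), and all 534 and all 110 were among the calls made without it. The 5 samples did not overlap in 602 of the genes called higher and in 135 of those called lower. Over all tested genes, 23.9% lay above E14.5 in every E16.5 sample and 25.6% below.

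**Figure D1:**
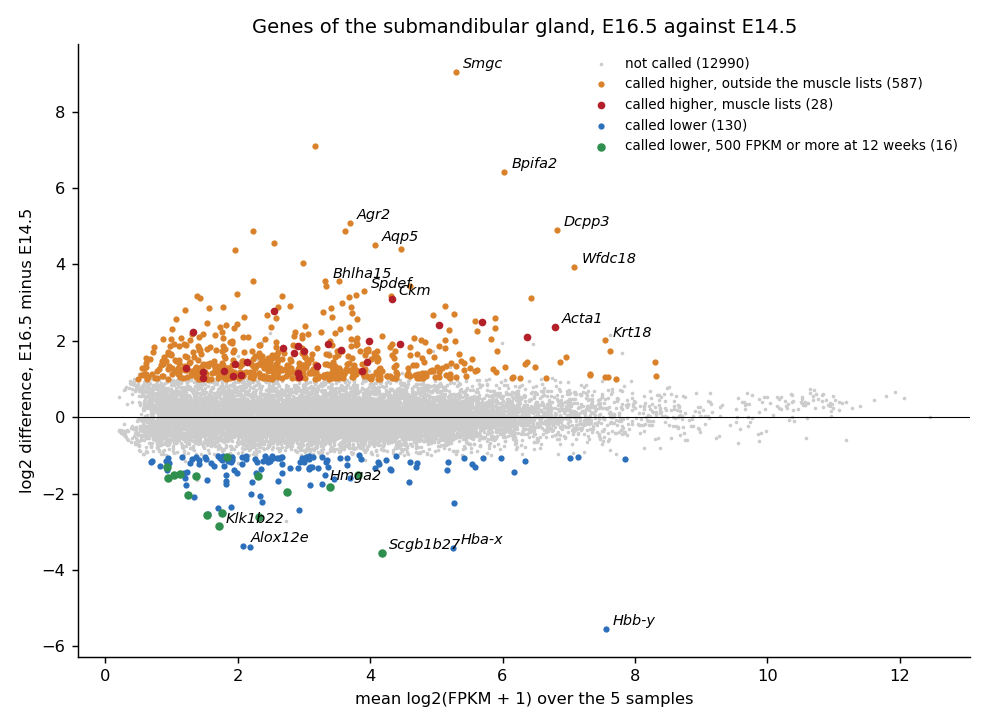
Each point is 1 of 13751 genes, with its mean log2(FPKM + 1) over the 5 samples on the x axis and its log2 difference, E16.5 minus E14.5, on the y axis. Orange points mark 587 genes called higher outside the muscle lists, red points 28 called higher in them, and blue and green points those called lower, the 16 green ones being genes at 500 FPKM or more at 12wk. Smgc, at 9.04, lies highest and the embryonic globin Hbb-y, at -5.54, lowest.

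Of the 615 genes called higher, 28 belonged to 3 lists of skeletal muscle genes, which are set apart. Of the other 587, both E18.5 samples lay above all E14.5 samples for 534, and below all of them for 18. The 28 muscle genes went the other way, with both E18.5 samples below all E14.5 samples for 26 and above for 1. Of the 146 genes called lower, both E18.5 samples were below all E14.5 samples for 126 and above for 10. These E18.5 counts are a description only. The same E14.5 samples had chosen the genes, and the share over all tested genes was not taken. In all, 216 genes went from under 1 FPKM in every E14.5 sample to at least 1 FPKM in both E16.5 samples, of which 88 passed the test, and 128 went the opposite way, of which 26 passed it.

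Promoter sequences of 2 secretory genes and 2 muscle genes that rose are shown for the letters they share or lack, as a description only. They are the 250 bases before the start of the gene in RefSeq (GRCm38.p6, a later build than the mm9 of the expression files), written 5′ to 3′ in the direction of the gene. The first pair is Smgc (chromosome 15, 91838078 to 91838327, plus strand) with TATAAA in capitals, and Aqp5 (chromosome 15, 99590778 to 99591027, plus strand) with CACGTG in capitals. The second pair is Acta1 (chromosome 8, 123894776 to 123895025, minus strand) with CAGCTG, a CArG box and TATAAA in capitals, and Ckm (chromosome 7, 19410844 to 19411093, plus strand) with CAGCTG in capitals. The rise of Acta1, a log2 difference of 2.37 (limma adjusted p = 0.061), was not called in several other fits. Among them were those without E14.5 replicate 2, without E14.5 replicate 3 and without the filter at 1 FPKM. Acta1 stood at 186 and 466 FPKM at E16.5, and its difference was 1.71 without E16.5 replicate 2.
Smgc: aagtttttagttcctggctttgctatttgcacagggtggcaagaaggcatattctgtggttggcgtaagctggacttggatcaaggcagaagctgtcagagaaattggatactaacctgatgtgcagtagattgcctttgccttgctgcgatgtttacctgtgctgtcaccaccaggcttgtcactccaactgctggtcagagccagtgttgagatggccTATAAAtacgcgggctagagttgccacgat
Aqp5: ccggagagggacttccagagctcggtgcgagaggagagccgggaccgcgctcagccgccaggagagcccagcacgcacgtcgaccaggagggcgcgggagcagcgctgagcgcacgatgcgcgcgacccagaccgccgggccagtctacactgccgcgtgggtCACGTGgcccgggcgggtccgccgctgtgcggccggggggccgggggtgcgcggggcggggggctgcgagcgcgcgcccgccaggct
Acta1: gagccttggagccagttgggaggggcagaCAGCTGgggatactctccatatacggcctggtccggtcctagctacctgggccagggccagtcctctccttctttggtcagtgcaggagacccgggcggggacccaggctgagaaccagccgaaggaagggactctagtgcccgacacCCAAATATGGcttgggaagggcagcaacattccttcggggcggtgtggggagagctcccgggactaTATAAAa
Ckm: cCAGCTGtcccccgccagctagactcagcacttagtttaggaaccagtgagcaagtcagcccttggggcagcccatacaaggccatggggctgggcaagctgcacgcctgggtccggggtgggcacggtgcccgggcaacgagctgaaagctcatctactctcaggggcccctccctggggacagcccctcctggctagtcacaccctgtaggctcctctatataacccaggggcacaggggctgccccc

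CAGCTG, the core that MyoD-type factors bind, was sought on both strands in the same 250 bases of every promoter in the table and was found in 13% of 32851. It stood in 10 of the 20 promoters listed for muscle genes called higher (18 of the 28 genes matched), and in none of the 12 promoters listed for acinar products called higher (12 of 14 genes matched). The CArG box, the serum response factor site, was in 3 of those 20 muscle promoters, which belong to 2 genes, and in 1.47% of all promoters. TATAAA was in 3 of the 12 acinar promoters, 2 of the 20 muscle promoters and 12.4% of all, and CACGTG in 1 of the 12 and 6.02% of all. A match of such short letters is no proof of a binding site.

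Secretory products were among the largest rises, with 9 of the 28 genes that rose by at least 3 on the log2 scale. Of 36 acinar and proacinar product genes in the files, 29 were tested, of which 14 were called higher and 4 lower, with a median log2 difference of 1.19. The 4 called lower were Scgb1b27, Scgb2b26, Car6 and Prol1, which are treated below with other genes of the adult male gland. Smgc (chromosome 15, 91668696 to 91691869 in mm9, by GENCODE), which encodes submandibular gland protein C of the neonatal saliva, stood at 0.0523, 6.23 and 3.30 FPKM at E14.5 and at 1351 and 2109 FPKM at E16.5. Its log2 difference was 9.04 (SE 1.24, limma adjusted p = 0.00069), and it went on to 17748 and 19478 FPKM at E18.5. Bpifa2, the parotid secretory protein, was at 5.45, 15.3 and 11.6 FPKM before and 787 and 1134 FPKM after, a difference of 6.43 (SE 0.70, limma adjusted p = 0.00018). All E16.5 samples of both genes lay far above the E14.5 samples, and within E14.5 replicate 1 was the lowest.

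Other members of the group started from a wide range of levels. Lpo, the lactoperoxidase of saliva, was at 0.602, 3.95 and 3.13 FPKM at E14.5 and 59.7 and 144 FPKM at E16.5, a log2 difference of 4.88. Aqp5, the apical water channel of acinar cells, was at 0.568, 9.13 and 5.98 FPKM and then at 94.4 and 127 FPKM, a difference of 4.52 (SE 0.56, limma adjusted p = 0.00036). Replicate 1 of E14.5 was again the lowest for both, and without it the difference of Aqp5 was 3.71. Agr2, a disulfide isomerase of mucin-making cells, was even across the E14.5 samples, at 1.36, 2.44 and 2.81 FPKM, and reached 132 and 85.9 FPKM, a difference of 5.10 (SE 0.24, limma adjusted p = 3.2e-07). Tesc, a calcium-binding protein, was as even, at 0.440, 0.586 and 0.993 FPKM against 35.7 and 40.2 FPKM. Muc19, a gel-forming mucin encoded at the same locus as Smgc, was at 0.0171, 0.238 and 0.210 FPKM at E14.5 and at 15.9 and 33.5 FPKM at E16.5. Because transcripts of Smgc and Muc19 overlap, and Dcpp3 (12.4, 44.0 and 39.5 FPKM, then 1039.6 and 722 FPKM) has near-identical copies, reads could be split among them and their levels are uncertain.

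Genes with large rises that were in no product list included Lman1l, a relative of the ER cargo lectin, which was at 0, 0.363 and 0.302 FPKM at E14.5 and 27.9 and 43.1 FPKM at E16.5. Oit1 was at 0.746, 0.820 and 0.688 FPKM and then at 19.9 and 19.6 FPKM, a difference of 3.57 (SE 0.13, limma adjusted p = 1.6e-07) with hardly any spread inside either group. Pglyrp1, a peptidoglycan recognition protein, rose by 4.41, the tetraspanin Tspan1 by 4.03 and the mucosal chemokine Cxcl17 by 3.57. These are log2 differences, each without overlap between the groups. BC048546, named after its values were seen, had the second largest rise, from 0.188, 0.235 and 0.358 FPKM to 101 and 293 FPKM.

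Of 36 tested genes of secretory regulation and ER machinery, 13 were called higher and 1 lower, with a median log2 difference of 0.81. Bhlha15 (Mist1), the transcription factor that shapes granule-bearing acinar cells, was at 0.609, 4.97 and 4.39 FPKM at E14.5 and 35.8 and 51.6 FPKM at E16.5. Spdef, an ETS factor of mucous cells, was at 0.654, 12.6 and 8.72 FPKM and then at 50.1 and 67.1 FPKM. For both, the lowest E16.5 sample was well above the highest E14.5 sample, with log2 differences of 3.56 and 3.29 that were 2.96 and 2.36 without E14.5 replicate 1. Rab3d, a GTPase of secretory granules, had the most even values, 4.67, 5.83 and 5.21 FPKM against 36.2 and 44.3 FPKM, a difference of 2.72 (SE 0.12, limma adjusted p = 2.3e-07). Creb3l4, an ER-bound transcription factor, rose by 2.99. Picked after the values were seen, Xbp1, the factor that expands the ER, rose by 1.04 and Ern2, the epithelial form of its activator IRE1, by 1.70. The single member called lower was Nr5a2, at 7.57, 2.39 and 2.91 FPKM and then 1.42 and 1.29 FPKM, and without E14.5 replicate 1 its difference was -0.63.

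**Figure D2:**
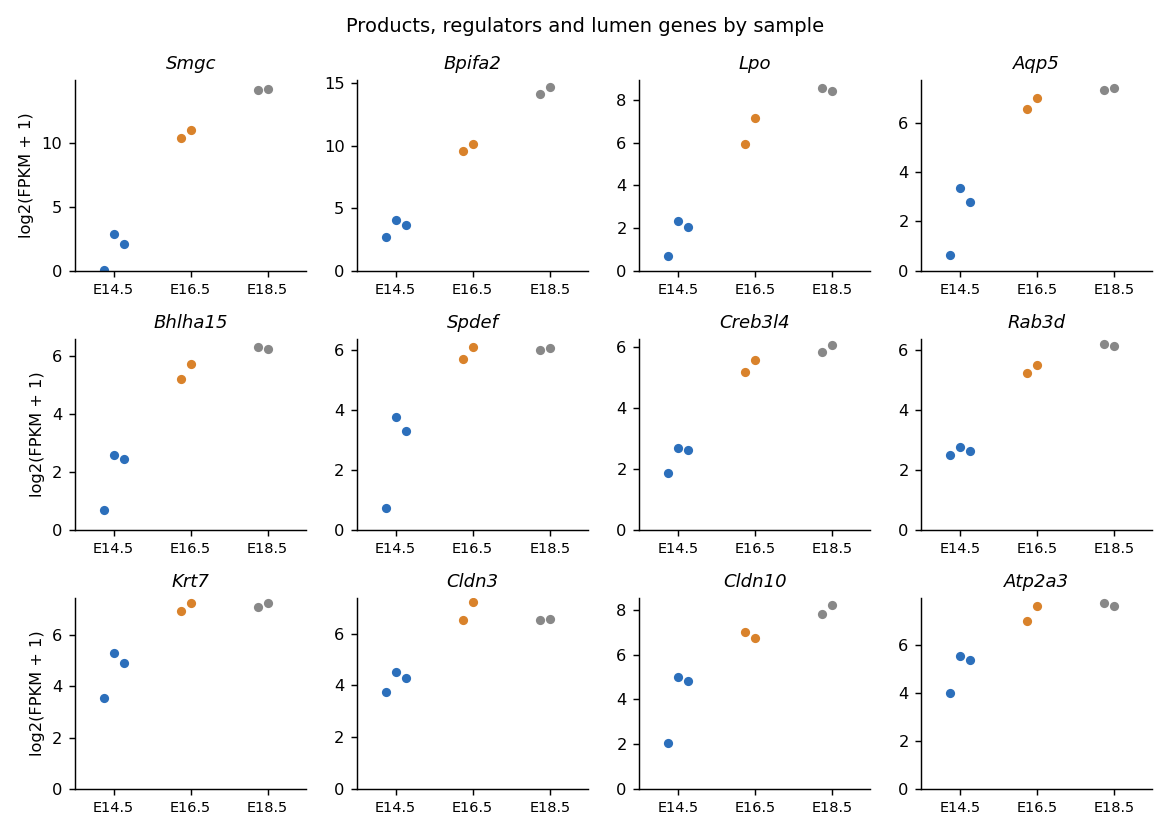
Each panel shows 1 gene, with log2(FPKM + 1) on the y axis and 1 point per sample, for the 3 samples of E14.5 (blue), the 2 of E16.5 (orange) and the 2 of E18.5 (grey). In all 12 panels both E16.5 points lie above the 3 E14.5 points, and Smgc and Bpifa2 climb further by E18.5 while Spdef, Krt7 and Cldn3 do not.

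Of 37 tested genes of tight junctions, polarity and lumen formation, 18 were called higher and 1 lower, with a median log2 difference of 0.94. Cldn3 (chromosome 5, 135462084 to 135463342 in mm9), a sealing claudin, was at 12.5, 21.7 and 18.6 FPKM at E14.5 and 92.5 and 147 FPKM at E16.5, a difference of 2.70 (SE 0.23, limma adjusted p = 3.6e-05). Cldn10, which forms ion-selective pores, was at 3.19, 30.5 and 27.6 FPKM and then at 129 and 106 FPKM. Its difference was 2.92 with all samples and 1.97 without E14.5 replicate 1, whose level was far under the other 2. Prom2, a prominin of apical protrusions, rose by 1.75 (SE 0.15, limma adjusted p = 3.1e-05), from 3.29, 4.28 and 4.06 FPKM to 12.8 and 18.3 FPKM. Members outside the 4 largest changes, picked after the values were seen, were the polarity protein Crb3 with 1.63, the tricellular junction protein Marveld2 with 1.24, and Cldn7, Cldn4 and Cldn8 with 1.57, 1.03 and 1.03. The count of this list was 12 without E14.5 replicate 1 and 11 without E16.5 replicate 2.

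The VIP signal, which acts on the opening of lumens, had its ligand called lower and its receptor called higher. Vip, a neuropeptide of the parasympathetic ganglion, was at 12.1, 10.5 and 7.91 FPKM at E14.5 and at 6.09 and 2.39 FPKM at E16.5, a log2 difference of -1.17 (SE 0.36, limma adjusted p = 0.042). Vipr1, its receptor on epithelium, went from 0.719, 1.43 and 1.33 FPKM to 5.77 and 9.40 FPKM, a difference of 1.97 (SE 0.21, limma adjusted p = 0.00012). The samples overlapped for neither gene. After median-of-ratios rescaling Vip was still called, at -1.11, but without E16.5 replicate 2, the lowest sample, it was not, at -0.64 (limma adjusted p = 0.28).

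Of 31 tested genes of ion and water transport, 14 were called higher and none lower, with a median log2 difference of 0.97. Fxyd3, a regulator of the sodium pump, was at 14.9, 38.3 and 37.5 FPKM at E14.5 and 189.8 and 158 FPKM at E16.5. Slc5a8, a sodium-coupled carrier of monocarboxylates, was at 1.91, 1.95 and 1.99 FPKM and then at 11.3 and 17.7 FPKM, a difference of 2.36 (SE 0.17, limma adjusted p = 1e-05). Atp6v1b1, a proton pump subunit of intercalated and ionocyte cells, was at 0.915, 10.1 and 9.30 FPKM and then at 21.5 and 32.8 FPKM, so that its difference of 2.19 was 1.37 without replicate 1. The parts of fluid secretion, named here after their values were seen, were on both faces of the cell. Slc12a2, which loads chloride on the basal side, rose by 1.03, Ano1, the calcium-activated chloride channel, by 1.14, Kcnn4, a potassium channel, by 2.02 and Cftr by 1.01. Subunits Scnn1a and Scnn1b of the sodium channel that takes up salt in ducts rose by 1.22 and 1.09. The count of this list was 9 without E14.5 replicate 1 and 8 without E16.5 replicate 2.

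Among autonomic and calcium signalling genes, 3 of 22 were called higher, and 5 without E16.5 replicate 1. Atp2a3, a calcium pump of the ER, was at 14.6, 44.6 and 39.8 FPKM at E14.5 and 125 and 193 FPKM at E16.5. P2rx4, an ATP-gated channel of acinar cells, rose by 1.89 (SE 0.14, limma adjusted p = 1.2e-05), from 6.09, 7.68 and 7.96 FPKM to 26.6 and 32.7 FPKM. Of 200 tested solute carriers, taken by symbol, 17 (8.5%) were called higher and 2 (1%) lower, against 4.47% and 1.06% of all tested genes. Without E16.5 replicate 2, 11 were called higher, and none was called lower after median-of-ratios rescaling or when either E16.5 sample was left out. The choline transporter Slc44a4 stood at 0.0221, 0.0336 and 0.0160 FPKM at E14.5 and at 3.94 and 6.59 FPKM at E16.5.

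Keratins of simple epithelium rose, and 2 keratins of basal cells overlapped between the groups, Krt5 only through E14.5 replicate 1. Both E16.5 values of Krt5 lay above those of E14.5 replicates 2 and 3. Of 28 tested genes of keratins and epithelial identity, 11 were called higher and none lower, with a median log2 difference of 0.75. Krt7, a keratin of luminal cells, was at 10.6, 38.2 and 29.1 FPKM at E14.5 and 121 and 153 FPKM at E16.5. Krt8 and Krt18, which pair into the filaments of simple epithelia, rose by 1.72 and 2.02, and Krt19 of duct cells by 1.80. For the basal keratins, chosen after their values were seen, the level of Krt14 was 49.4, 68.9 and 67.8 FPKM and then 63.8 and 57.7 FPKM, and that of Krt5 was 21.5, 8.81 and 10.2 FPKM and then 13 and 21.0 FPKM, with overlap in both. Without E16.5 replicate 2 the count of the list was 7. The summed FPKM of the list, 2024 and 2606 at E16.5, was above every E14.5 sample, whereas that of interstitial collagens and fibroblast matrix was 5535, 5172 and 5245 at E14.5 and 4314 and 5254 at E16.5, and the part of a shift in tissue makeup in these rises was not tested.

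Of 21 tested regulators of ducts and ionocytes, 6 were called higher. Ehf, an ETS factor of epithelia, was at 31.1, 71.2 and 71.1 FPKM at E14.5 and 135 and 165 FPKM at E16.5, a log2 difference of 1.45. Tfcp2l1, a grainyhead-like factor of ducts, went from 15.2, 34.9 and 33.7 FPKM to 50.8 and 90.1 FPKM, and Grhl1 of the same family from 6.70, 10.6 and 10.1 FPKM to 16.2 and 25.7 FPKM. Foxc1 rose by 1.17. These calls leaned on single samples, since 3 were made without E14.5 replicate 1 and 1 without E16.5 replicate 2.

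The list of myoepithelial and smooth muscle genes had 8 of 24 tested members called higher, with a median log2 difference of 0.67. Which cells of the gland carried these rises was not tested. Tagln (transgelin) was at 19, 17.8 and 18.8 FPKM at E14.5 and 75.4 and 66.0 FPKM at E16.5, a difference of 1.87 (SE 0.16, limma adjusted p = 3.7e-05). Acta2, the smooth muscle actin that marks myoepithelial cells, was at 55.3, 28.6 and 30.2 FPKM and then at 104 and 144 FPKM, with E14.5 replicate 1 the highest of its group. Cnn1 (calponin) went from 0.365, 0.655 and 0.584 FPKM to 2.98 and 4.14 FPKM, and to 22.6 and 29.1 FPKM by E18.5. Desmin (Des), with 1.11, and Tpm2, with 1.06, are also made by striated muscle, whose level differed among the samples. The count was 3 without E16.5 replicate 2.

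**Figure D3:**
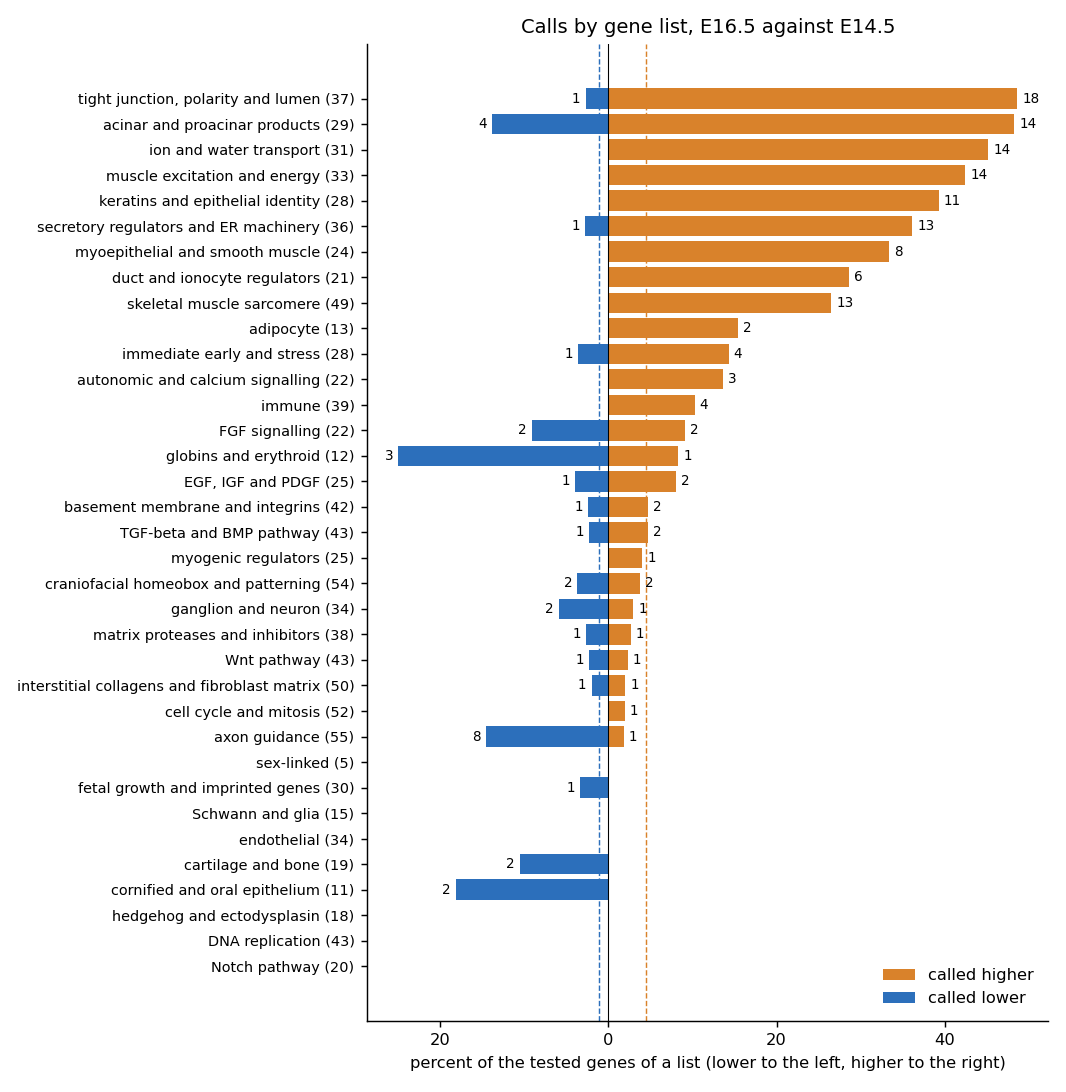
Bars give the percent of the tested genes of each list (number tested in parentheses) that were called higher at E16.5, to the right in orange, or lower, to the left in blue, with the number of genes at the bar's end. Dashed lines mark the shares over all tested genes, 4.47% higher and 1.06% lower. Lumen, acinar products, transport, and muscle excitation and energy reach farthest to the right, and globins (3 of 12), cornified and oral epithelium (2 of 11), axon guidance (8 of 55) and acinar products (4 of 29) farthest to the left. The 4 acinar products called lower are genes at 500 FPKM or more at 12wk.

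Skeletal muscle genes were a separate group. Of 107 tested genes of the 3 muscle lists, 28 were called higher and none lower, made up of 13 of 49 sarcomere genes, 14 of 33 genes of muscle excitation and energy and 1 of 25 myogenic regulators. The summed FPKM of sarcomere genes was 1587, 742 and 602 at E14.5 and 2002 and 2508 at E16.5, so the lowest E16.5 sample was not far above E14.5 replicate 1. That sample was the highest of E14.5 for 93 of the 107 genes. Without it 42 muscle genes were called higher, and without E16.5 replicate 2, the sample with the larger sum, 17. Of the sarcomere genes, 24 were called without E14.5 replicate 1, 20 without E16.5 replicate 1 and 6 without E16.5 replicate 2.

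Genes of fast fibres were among those called higher. The slow troponins Tnnc1, Tnni1 and Tnnt1 were not called, with log2 differences of -0.16, 0.52 and 0.22. Without E14.5 replicate 1 their differences were 0.69, 1.16 and 0.87, and Tnni1 was called higher. The fast troponin C Tnnc2 was called at 2.10 (limma adjusted p = 0.091). That call was lost after median-of-ratios rescaling, without E14.5 replicate 2 and without E14.5 replicate 3. Ckm (chromosome 7, 19996443 to 20006932 in mm9), the muscle creatine kinase, was at 5.79, 10.4 and 6.90 FPKM at E14.5 and 49.2 and 105 FPKM at E16.5, a log2 difference of 3.10 (SE 0.43, limma adjusted p = 0.00074). Myoz1, a Z-disc protein of fast fibres, was at 1.16, 2.22 and 1.85 FPKM and then at 15.5 and 19.7 FPKM, a difference of 2.77 (SE 0.21, limma adjusted p = 1.4e-05). For both genes E14.5 replicate 1 was the lowest of its group, against the order of the summed sarcomere level. Tnni2, the fast troponin I, rose by 2.5 and Sln (sarcolipin), which restrains the calcium pump of muscle, by 2.42. Mybpc1, the slow form of myosin-binding protein C, rose by 1.92, while the fast troponin T Tnnt3 missed the test at 1.94 (limma adjusted p = 0.11), both named after their values were seen. Among the regulators of the myogenic programme, Myog and Myod1 did not pass, with Myog at 47.3, 12.7 and 10.8 FPKM and then 13.4 and 17.4 FPKM, and Myod1 at 8.06, 1.85 and 1.39 FPKM and then 1.73 and 2.70 FPKM. Myf6, the late member of that family, was called higher at 1.02, but not after median-of-ratios rescaling (0.92), without E14.5 replicate 3 (0.91) or without E16.5 replicate 2 (0.80).

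Ratios of 2 forms of the same sarcomere protein set aside the amount of muscle only if its kind was the same in every sample. That was not tested. For 6 such pairs, chosen after the values were seen and given without a test, both E16.5 ratios lay above all E14.5 ratios. In all 6, E14.5 replicate 1, the sample with the largest sarcomere sum at E14.5, had the lowest ratio. Skeletal over cardiac alpha-actin (Acta1 over Actc1) was 0.380, 0.948 and 0.835 at E14.5 and 1.58 and 2.01 at E16.5. Perinatal over embryonic myosin heavy chain (Myh8 over Myh3) was 0.241, 0.353 and 0.289 and then 1.04 and 1.43. Fast over slow troponin C (Tnnc2 over Tnnc1) was 0.909, 2.84 and 2.70 and then 9.42 and 9.12. The lowest E16.5 ratio exceeded the highest E14.5 ratio by 1.67 times for the actins and 2.95 times for the myosins. It did so by 3.21, 2.13 and 2.29 times for troponins C, I and T, and by 2.2 times for Myl1 over Myl4. Embryonic myosin Myh3 itself, at 65.0, 17.8 and 18.1 FPKM and then 15.5 and 52.9 FPKM, overlapped between the groups.

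**Figure D4:**
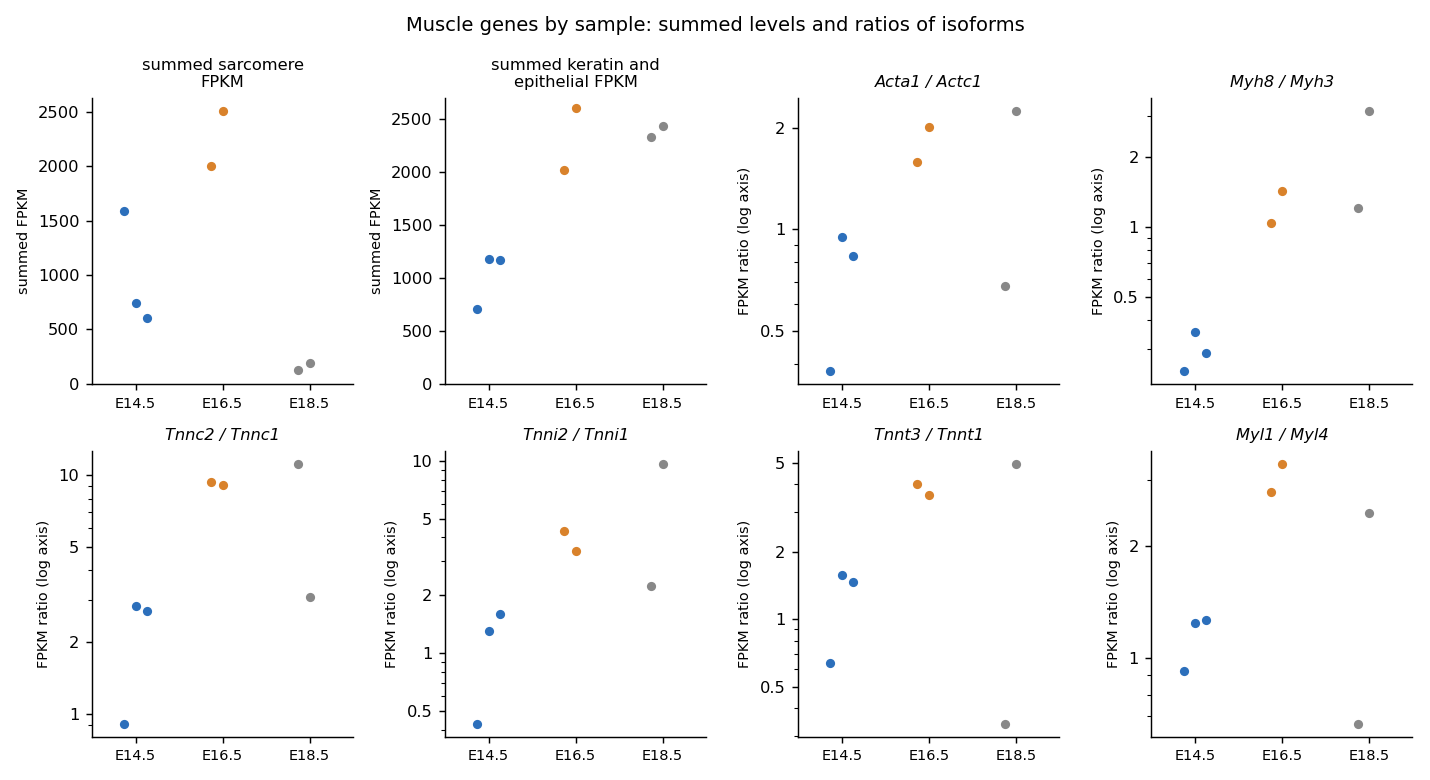
The first 2 panels show the summed FPKM of sarcomere genes and of keratin and epithelial genes in each sample, and the other 6 the ratio of FPKM of 2 forms of a sarcomere protein on log axes, with E14.5 in blue, E16.5 in orange and E18.5 in grey. E14.5 replicate 1, the leftmost blue point, is high in the sarcomere sum and low in the epithelial sum, while all 6 ratios at E16.5 lie above those at E14.5. The E18.5 ratios rest on low levels, with sums of 130.1 and 187.

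Losses were fewer, and fell into groups of different kinds. Of 12 tested genes of globins and red cells, 3 were called lower and 1 higher. The largest fall of all was that of Hbb-y (chromosome 7, 111000259 to 111001754 in mm9), the beta-type globin of the first red cells. It was at 2991, 334 and 670.2 FPKM at E14.5 and 35.4 and 8.70 FPKM at E16.5, a log2 difference of -5.54 (SE 0.75, limma adjusted p = 0.00066). Hba-x, its alpha-type partner, was at 291, 40.2 and 78.7 FPKM and then at 9.42 and 7.15 FPKM, and Hbb-bh1 at 24.6, 2.91 and 4.23 FPKM and then at 1.22 and 0.791 FPKM. All 3 were without overlap, and E14.5 replicate 1 held the most of each. Without that sample the differences were -4.66, -2.64 and -1.18, and all 3 were still called.

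Of 55 tested genes of axon guidance, 8 were called lower and 1 higher, with a median log2 difference of -0.39. Robo2 (chromosome 16, 73892551 to 74412070 in mm9), a receptor for Slit proteins, was at 30.2, 19.6 and 21.4 FPKM at E14.5 and 8.27 and 9.23 FPKM at E16.5, a difference of -1.32 (SE 0.18, limma adjusted p = 0.0007). Nrp2, a neuropilin that receives semaphorins and VEGF, was at 51.6, 29.6 and 30.7 FPKM and then at 13.1 and 14.9 FPKM. The netrin receptor Unc5d was at 3.61, 1.01 and 1.11 FPKM and then at 0.182 and 0.151 FPKM, and the ephrin Efnb3 at 14.2, 5.84 and 5.86 FPKM and then at 2.81 and 2.87 FPKM. E14.5 replicate 1 was the highest for each of these 4 genes, and 3 of the list were called lower without it. In the same list Epha5 rose by 1.14, and by 0.83, under the limit, without E16.5 replicate 2. Slitrk1, a synaptic adhesion protein, was at 19.5, 9.88 and 11.2 FPKM and then at 3.49 and 2.74 FPKM, a difference of -1.77 (SE 0.23, limma adjusted p = 0.00058).

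Of 34 tested genes of ganglia and neurons, 2 were called lower and 1 higher, with a median of -0.58. The count called lower was 1 without E14.5 replicate 1, 5 without replicate 2, 8 without replicate 3, 5 without E16.5 replicate 1, and 1 after median-of-ratios rescaling. Dcx, a microtubule protein of young neurons, was even at 11.4, 10.2 and 10.5 FPKM at E14.5 and stood at 4.48 and 4.96 FPKM at E16.5, a log2 difference of -1.03 (SE 0.14, limma adjusted p = 0.00064) that was -0.99, under the limit, after rescaling. Nrtn (neurturin), the factor that epithelium makes to keep parasympathetic neurons, went the other way, from 9.94, 9.71 and 7.61 FPKM to 42.3 and 44.0 FPKM, and was back at 15.2 FPKM in both E18.5 samples. Its difference of 2.14 (SE 0.16, limma adjusted p = 1.6e-05) was 2.2 without E14.5 replicate 1. Of 15 tested Schwann and glia genes none was called in limma, with 4 at an unadjusted p below 0.05, and Sox10 was at 38.4, 45.8 and 48.9 FPKM and then at 45.0 and 71.9 FPKM.

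Of 30 tested fetal growth and imprinted genes, 1 was called lower and none higher. It was Hmga2, a chromatin protein of fetal growth, which was at 28.2, 9.60 and 11.4 FPKM at E14.5 and 4.19 and 3.23 FPKM at E16.5, a log2 difference of -1.74. Of 54 tested craniofacial homeobox and patterning genes, 2 were called in each direction, 3.7%, against 4.47% higher and 1.06% lower of all tested genes. Sox11, a factor of immature cells and 1 of those called lower, was even at 11.4, 10.6 and 11.8 FPKM and then at 3.56 and 4.22 FPKM, a difference of -1.33 (SE 0.14, limma adjusted p = 0.00011). Outside both lists, Gpc3, the glypican that limits growth, was at 428, 254 and 277 FPKM and then at 144 and 149 FPKM, and Igf1 at 46.1, 27.1 and 27.7 FPKM and then at 15.7 and 12.1 FPKM. Without E14.5 replicate 1, Gpc3 and Igf1 missed the limit of 1, at -0.85 and -0.94. Each of 3 matrix lists had 1 gene called lower, between 2% and 2.63% of its tested genes. Between 2% and 4.76% were called higher, against 1.06% lower and 4.47% higher over all tested genes. Of 38 matrix proteases and inhibitors, Mmp16, a membrane-bound protease, had a difference of -1.51 and Mmp23 one of 1.39. Of 50 interstitial collagens and fibroblast matrix genes, the versican gene Vcan had -1.23 and Col5a3 1.08, of which Vcan was not called without E16.5 replicate 1 (-0.97) and Col5a3 in no fit that left out E14.5 replicate 1 or either E16.5 sample. Of 42 basement membrane and integrin genes, the integrin Itga9 had -1.59, and Lamb3 and Col17a1 of epithelial anchoring 1.43 and 1.19. Without E16.5 replicate 2 neither Lamb3 (1.01, limma adjusted p = 0.13) nor Col17a1 (0.81) was called, and 0 of the 42 were higher. Of 19 cartilage and bone genes 2 were called lower, among them Col9a1 by -1.30.

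Of 22 tested FGF genes, 2 were called higher and 2 lower, each 9.09%, against 4.47% and 1.06% of all tested genes. These counts rested on single samples, with 1 lower without E14.5 replicate 1, E14.5 replicate 3 or E16.5 replicate 1, and 1 higher without E16.5 replicate 2. Etv5, an ETS factor switched on by FGF receptors in the end bud, was at 60.7, 70.9 and 76.3 FPKM at E14.5 and 27.6 and 38.5 FPKM at E16.5, a log2 difference of -1.06 (SE 0.27, limma adjusted p = 0.019). Flrt3 fell by 1.18, while Fgf1 and the FGF-binding protein Fgfbp1 rose by 1.14 and 1.30. Of 43 Wnt genes, the inhibitor Sfrp1 fell, from 128, 223 and 232 FPKM to 83.9 and 99.1 FPKM, and Wnt4 rose, from 4.79, 4.82 and 4.00 FPKM to 10.4 and 11.8 FPKM. Of 43 TGF-beta and BMP genes, Gdf5 rose by 1.68 and Inhbb by 1.37, and the BMP antagonist Chrdl1 fell by 1.06. The shares called were 2.33% in each direction for Wnt, and 4.65% higher and 2.33% lower for TGF-beta and BMP. With 4.47% and 1.06% over all tested genes, these are changes of single genes and no result about the lists. Sfrp1 was not called without E14.5 replicate 2, E14.5 replicate 3 or E16.5 replicate 1, and Inhbb and Chrdl1 were not called without E14.5 replicate 1 or E16.5 replicate 2. None of 18 hedgehog and ectodysplasin genes or of 20 Notch genes was called in limma, with 7 and 5 at an unadjusted p below 0.05. For hedgehog, the signal transducer Smo was at 57.3, 61.2 and 58.2 FPKM and then at 51.3 and 47.6 FPKM. The Notch target Hes1 was at 29.3, 32.0 and 33.2 FPKM and then at 40.3 and 58.2 FPKM, a log2 difference of 0.61, below the limit of 1.

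Of 52 genes of cell cycle and mitosis 1 was called, the inhibitor Cdkn2c, at 6.75, 9.31 and 7.64 FPKM at E14.5 and 18.2 and 21.6 FPKM at E16.5, and the median log2 difference of the list was 0.04. Of 43 replication genes none was called in limma, with 4 at an unadjusted p below 0.05 and a median of -0.16. Pcna, the sliding clamp of replication, was at 253, 339 and 339 FPKM and then at 346 and 236 FPKM. Endothelial genes gave 0 calls of 34 in limma, with 9 at an unadjusted p below 0.05. Cdh5, the adhesion protein of vessel walls, stood at 31, 36.4 and 38.6 FPKM and then at 27.3 and 37.3 FPKM. Immune genes gave 4 calls of 39, led by the mast cell tryptase Tpsb2 at 0.715, 17.8 and 11.5 FPKM and then 27.3 and 32.3 FPKM, which was nearly absent from E14.5 replicate 1 alone. Without E16.5 replicate 1 the count of immune genes was 1, and Tpsb2 was not called when either E16.5 sample was left out.

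A group of genes known from the adult male gland was called lower in spite of its later rise. Of the 146 genes called lower, 16 stood at 500 FPKM or more at 12wk, of which 10 were kallikreins of the Klk1b family and the other 6 included the secretoglobins Scgb1b27, Scgb2b26 and Scgb2b27, the carbonic anhydrase Car6 and Prol1. Scgb1b27 was at 46.9, 47.8 and 47.3 FPKM at E14.5 and 3.24 and 3.01 FPKM at E16.5, a log2 difference of -3.55 (SE 0.16, limma adjusted p = 2.8e-07). Klk1b22 was at 6.10, 6.56 and 6.13 FPKM and listed at 0 in both E16.5 samples, and Klk1b16 was at 4.92, 4.97 and 4.90 FPKM and likewise listed at 0. The 3 E14.5 samples held nearly the same level of these genes, although replicate 1 differed from the others in epithelial genes.

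The E14.5 mean of these 16 genes was between 0.0289% and 0.0572% of their 12wk mean, with a median of 0.0359%, and their E16.5 mean was between 0% and 0.0177%. Klk1b16 reached 13840 FPKM at 12wk, and its E14.5 mean was 0.0356% of that. Scgb1b27 reached 82759 FPKM, and its E14.5 mean was 0.0572%. Among genes that were not called, the share was 0.0405% for Amy1 and 0.0274%, just under that range, for Chia, both chosen after the values were seen. Chia was at a mean of 0.124 FPKM at 4wk and 3437 FPKM at 12wk. Among the genes called higher, Pip went from 0.0367% of its 12wk mean to 0.255%, and Bpifa2 from 0.0574% to 5.11%. The 12wk samples of Bpifa2 were far apart, at 3769.5 and 33795 FPKM, so its shares are uncertain. The part that RNA or reads of another sample might have in these E14.5 levels was not tested. Without genes at 500 FPKM or more at 12wk, an alternative added after seeing the data, 130 genes were called lower and 607 higher. The Klk1b genes are close copies of each other, and the counting left out reads with several matches, so single members are uncertain.

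**Figure D5:**
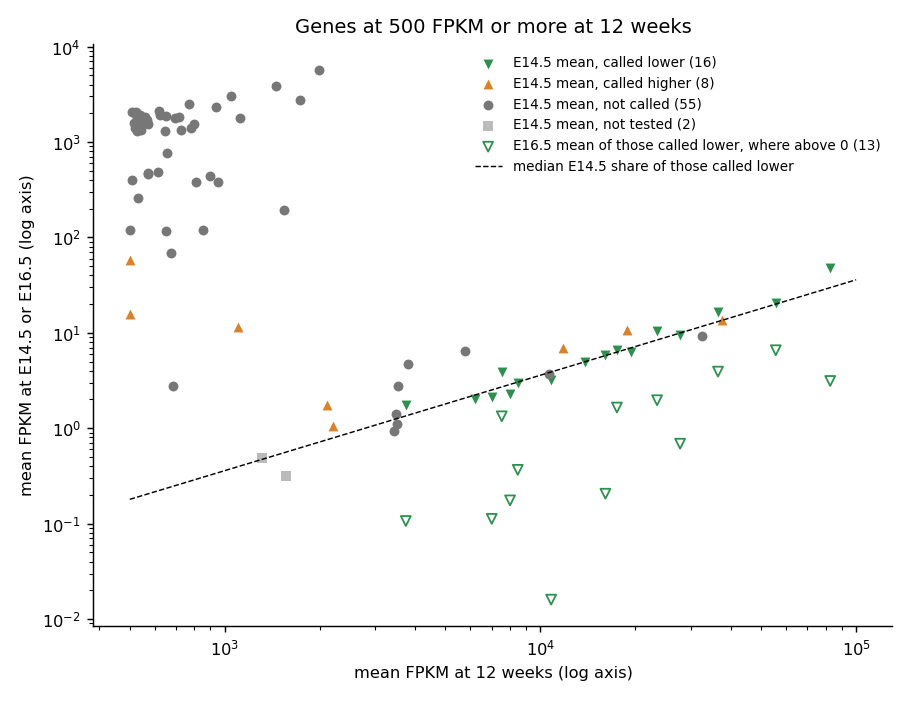
Each filled point is a gene at 500 FPKM or more at 12wk, with its 12wk mean on the x axis and its E14.5 mean on the y axis, both on log axes, and open triangles give the E16.5 mean of genes called lower where it was above 0. The genes called lower (green) lie along the dashed line, which marks their median E14.5 share of 0.0359% of the 12wk mean.

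For a few genes called lower, E14.5 replicate 1 was far under replicates 2 and 3. Alox12e, an epidermal lipoxygenase, was at 0.0674, 33.8 and 32.5 FPKM at E14.5 and at 0.0597 and 0.0348 FPKM at E16.5. Pianp was at 1.33, 11.7 and 11.4 FPKM and then at 0.377 and 0.435 FPKM, and Agr3 at 1.27, 8.23 and 8.13 FPKM and then at 0.943 and 0.524 FPKM. In FPKM, replicate 1 lay closer to the E16.5 samples than to replicates 2 and 3 for each. The call of Alox12e (limma adjusted p = 0.056) was lost in most other fits. Among them were those without E14.5 replicate 2, without E14.5 replicate 3 and without the filter at 1 FPKM. In a fit of only the 5 samples neither Alox12e nor Agr3 was called (limma adjusted p = 0.19 and 0.13). Agr3 was not called without E16.5 replicate 2.

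Transcript length moved with the comparison. Genes with under 1000 exon bases (684 tested genes) had a median log2 difference of 0.38 between E16.5 and E14.5, and those with over 5000 (4091 genes) one of -0.18. The E16.5 samples differed between themselves in the same way, with medians of 0.34 and -0.33 for replicate 1 minus replicate 2. The genes called higher had a median of 2527 exon bases, those called lower 3690 and all tested genes 3678. The summed FPKM of cytosolic ribosomal protein genes was 77871, 99599 and 91735 at E14.5 and 164480 and 83437 at E16.5, and none of 77 was called in limma (11 at an unadjusted p below 0.05), whereas 16 were called higher without E16.5 replicate 2. Respiratory chain genes gave 4 calls of 76 with all samples, 20 without that replicate and 1 without E16.5 replicate 1. With all samples the 4 calls, all higher, were 5.26% of the respiratory chain genes, against 4.47% of all tested genes. The part of length in the calls of short genes was not tested.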

How the data were processed

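RNA of whole submandibular glands was sequenced by the authors as 50 bp single-end reads from TruSeq libraries, mapped to mm9 with TopHat2 2.0.13 and Bowtie2 2.2.6 and counted with featureCounts on the UCSC genes of that build, where reads matching several places or genes were left out. The authors deposited FPKM derived with DESeq2 1.10.1, 1 value per gene and sample. Median-of-ratios factors of these values differ from 1, so they were taken as scaled to each sample's own total. Read totals per sample were recovered from the steps between low values.

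Here, genes at 1 FPKM or more in any of the 5 samples were fitted as log2(FPKM + 1), a scale that understates changes of low genes, with limma 3.58.1 under R 4.3.3 (trend), over 13 samples in 6 groups with 7 residual degrees of freedom. Groups came from the sample labels. Calls needed a log2 difference of 1 and an adjusted p below 0.1 (Benjamini-Hochberg). In simulated data for this comparison with 13751 genes, 95% of genes changed by 1.5 on the log2 scale were called. Of those changed by 3, 100% were called, and there were 6 false calls. The changed genes were drawn from the more abundant ones at E14.5, and each gene had 1 spread in all groups. The simulation held no outlying sample, so its shares do not describe low genes or calls that E14.5 replicate 1 moves. Named genes were the 15 largest changes in each direction without overlap, the 8 largest in the muscle lists, up to 4 per list and direction, and the most abundant called genes. The genes, the 44 lists and the comparison were chosen with earlier results of these data known. Figures used Python 3.11.15 and matplotlib 3.10.9. Promoters are from RefSeq.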

Additional observations from a re-analysis of the deposited data

How the results depend on the processing

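The counts of genes called higher, called lower and called in all stayed within 1.5 times their values of 615, 146 and 761 under every alternative run except 1. With a pseudocount of 0.1 in place of 1, 263 genes were called lower. Leaving out 1 of the 5 samples gave between 732 and 885 calls, with 575 to 761 higher and 124 to 172 lower, and between 17 and 42 muscle genes called higher, the lowest count without E16.5 replicate 2 and the highest without E14.5 replicate 1. No named gene changed direction. Of 151 named genes that were called, 86 were called under every setting that tested them, and the setting that lost the most, 42, was the fit without E16.5 replicate 2, the cause of which was not tested. With the replicate number as a replicate block, 763 genes were called, 614 higher and 149 lower, and 18 muscle genes higher instead of 28. The numbers mark no shared litter or day, and deviations of E14.5 and E16.5 samples with the same number correlated at -0.13 and -0.23, so the samples were not treated as paired. With 3 samples against 2, differences close to the limit of 1 are the least firm, as are those of genes that E14.5 replicate 1 alone sets apart. Depth, at 19281660 reads or more per sample, limits genes under about 1 FPKM most.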
